A study of Mus musculus with 2 samples.

Results

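The miR-17/miR-92 cluster, here the Mir17hg cluster, is a run of 6 microRNA (miRNA) genes, Mir17, Mir18, Mir19a, Mir20a, Mir19b-1 and Mir92-1, carried on the long noncoding transcript of the mouse gene Mir17hg. Its members were found by matching gene IDs in the deposited tables to GENCODE M21 symbols, and all 6 were present among 2202 miRNA genes. Levels were measured by microRNA-seq, with RNA inserts under 30 nt, in total RNA from heart tissue of 10-day-old female mice. Both animals were B6CASTF1/J, F1 hybrids between C57BL/6J and CAST/EiJ, and the labels name no treatment and no other group. The 2 hearts (replicates 2 and 1, n = 2) came from separate biosamples under 1 donor record and gave 1 library each. The hearts are therefore compared with each other only, and a difference between them is a difference between libraries.

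Reads on named miRNA genes numbered 4583025 in replicate 2 and 4260561 in replicate 1, of 10201509 and 10782737 reads in all. Levels are given as CPM, the gene-strand count scaled to a total of 1000000 named-gene reads. Where no read was counted, the true count may still be up to 3, equal to a level of 0.655 CPM in replicate 2 or 0.704 CPM in replicate 1. Marker miRNAs of heart were present: 6 of 7 cardiac and striated muscle genes reached 10 counts in each heart (summed level 6596 CPM in replicate 2 and 9699 CPM in replicate 1), the endothelial gene Mir126a averaged 112091 CPM, and 5 of 6 neuronal genes were at 0 in both. The smooth muscle, erythroid, white blood cell and liver genes listed all reached 10 counts in each heart as well, with the liver gene Mir122 averaging 109 CPM. None of these levels includes reads placed at more than 1 position. A marker gene with a copy elsewhere in the genome may therefore be undercounted, and by how much was not tested. For this reason the muscle sum is not read as low beside the level of Mir126a. In such bulk RNA, fewer cells of a type and less RNA per cell cannot be told apart.

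The primary transcript of Mir17hg is cut by Drosha and Dicer into several mature miRNAs. The cluster is known as an oncogenic locus switched on by Myc and E2F factors. In mice its deletion is lethal around birth, with small lungs and a ventricular septal defect. A mature miRNA finds its targets mainly through its seed, bases 2 to 8, so members with the same seed share many targets. miR-17 and miR-20a act on cell-cycle and apoptosis genes such as Cdkn1a and Bcl2l11. miR-18a is known for repressing Ctgf, miR-19 for promoting cardiomyocyte division in mouse heart, and miR-92a for restraining vessel growth by endothelial cells.

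The 6 genes give 4 seeds, and the mature forms below are shown because genes are grouped by them in the comparisons. Sequences are from RefSeq on GRCm38.p6 (the mm10 assembly), 5′ to 3′, with the seed in capitals. The deposited counts are per gene and do not separate the arms of a hairpin, so the forms shown are the arms best known as active.
miR-17-5p, from Mir17: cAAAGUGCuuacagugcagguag
miR-20a-5p, from Mir20a: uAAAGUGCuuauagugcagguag
miR-18a-5p, from Mir18: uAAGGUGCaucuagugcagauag
miR-19a-3p, from Mir19a: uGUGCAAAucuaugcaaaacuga
miR-19b-3p, from Mir19b-1 and its X-linked paralog Mir19b-2: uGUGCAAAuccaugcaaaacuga
miR-92a-3p, from Mir92-1 and its X-linked paralog Mir92-2: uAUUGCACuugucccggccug

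Positions count from 1 at the 5′ end, with the base of the first-named form written first. miR-17-5p and miR-20a-5p differed at 2 of 23 bases (C1U and C12U), both outside the seed. miR-17-5p and miR-18a-5p differed at 6 of 23 bases, of which A4G lies in the seed. miR-19a-3p and miR-19b-3p differed at 1 of 23 bases (U11C). G and C made up 34.8% of miR-19a-3p and 39.1% of miR-19b-3p, against 57.1% of miR-92a-3p and 47.8% of miR-17-5p.

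In M21 the hairpins lie in order Mir17, Mir18, Mir19a, Mir20a, Mir19b-1, Mir92-1 on the plus strand of chromosome 14 (mm10), from 115043671 to 115044506, a span of 836 bp. All 6 fall in exon 2 (115043271 to 115046727) of the single annotated Mir17hg transcript, a lincRNA gene at 115042879 to 115046727. Hairpins were 80 to 107 nt long and 35 to 96 bp apart. Mir17 (ENSMUSG00000065508.1) lies at 115043671 to 115043754, Mir18 (ENSMUSG00000065403.1) at 115043851 to 115043946 and Mir19a (ENSMUSG00000065416.1) at 115044000 to 115044081. Mir20a (ENSMUSG00000065442.1) lies at 115044157 to 115044263, Mir19b-1 (ENSMUSG00000076256.1) at 115044305 to 115044391 and Mir92-1 (ENSMUSG00000076062.1) at 115044427 to 115044506. No miRNA gene was annotated on the opposite strand there, and all 6 members had 0 opposite-strand reads in both hearts.

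Mir17 had the most counts among the members. It had 13564 counts (2960 CPM) in replicate 2 and 18306 counts (4297 CPM) in replicate 1, ranking 41 and 35 among 2202 genes. Mir92-1, the last hairpin of the transcript, followed with 9742 counts (2126 CPM) in replicate 2 and 7943 counts (1864 CPM) in replicate 1. Its miR-92a-3p also lies in Mir92-2, and reads placed at both genes are not in these counts. Mir20a, which shares the Mir17 seed, had 4671 counts (1019 CPM) in replicate 2 and 5633 counts (1322 CPM) in replicate 1. These 3 genes made up 96.2% of the cluster's counts in replicate 2 and 97.2% in replicate 1.

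Mir18 was an order of magnitude below Mir17, with 1093 counts (238 CPM) in replicate 2 and 910 counts (214 CPM) in replicate 1. The miR-19 genes were near the limit of counting. Mir19b-1 had 7 counts (1.53 CPM) in replicate 2 and 11 counts (2.58 CPM) in replicate 1, and Mir19a had 2 counts (0.436 CPM) in replicate 2 and 4 counts (0.939 CPM) in replicate 1. Of the 6 members, 4 reached the minimum of 10 counts in both hearts, as did 346 of 2202 genes, and Mir19a and Mir19b-1 did not.

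The order Mir17, Mir92-1, Mir20a, Mir18, Mir19b-1, Mir19a was the same in both hearts, and the values of neighbouring members did not overlap between the hearts. The last step is within counting error: the log2 ratio of Mir19a over Mir19b-1 in replicate 2 had an exact 95% interval of -5.11 to 0.59, and that in replicate 1 one of -3.57 to 0.30. Mean levels were 3628 ± 945 CPM for Mir17, 1995 ± 185 CPM for Mir92-1, 1171 ± 214 CPM for Mir20a and 226 ± 17.6 CPM for Mir18 (SD, n = 2). They were 2.05 ± 0.746 CPM for Mir19b-1 and 0.688 ± 0.355 CPM for Mir19a. CPM were compared between genes without scaling for length, since an insert spans a whole mature miRNA. The ratios were not corrected for ligation or mapping.

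**Figure D1:**
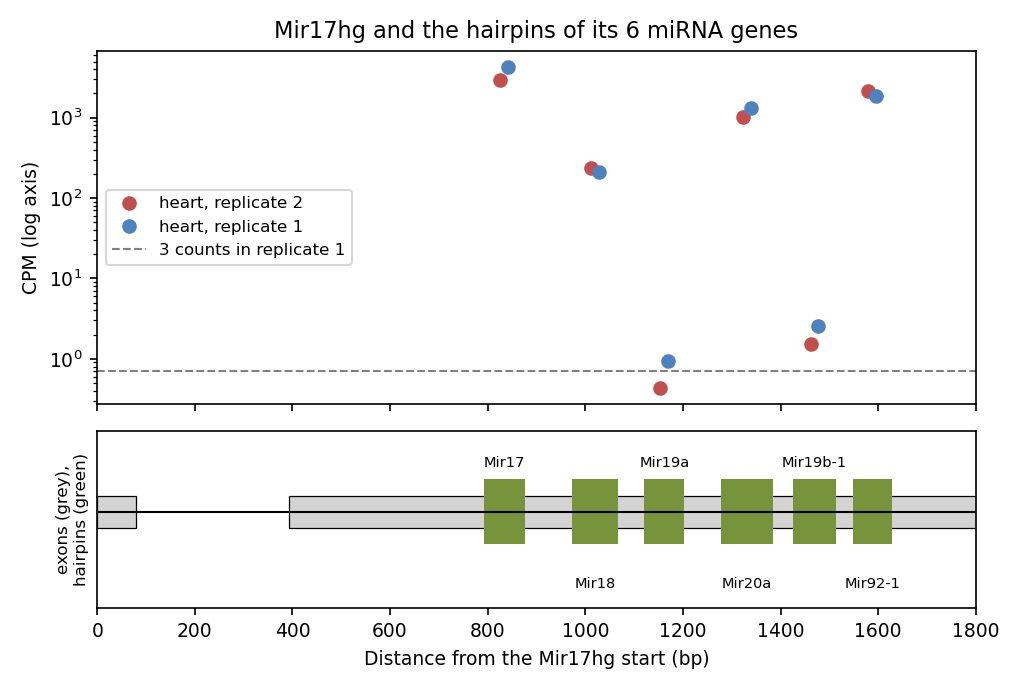
Upper panel: CPM on named miRNA genes (log axis) of each member in replicate 2 (red) and replicate 1 (blue), at the position of its hairpin; the dashed line marks 3 counts in replicate 1 (0.704 CPM). Lower panel: exons of Mir17hg (grey) and hairpins (green), in bp from the Mir17hg start; exon 2 runs on past the right edge. Mir19a and Mir19b-1 lie between hairpins counted at 214 CPM or more and stand at 2.58 CPM or less.

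By these counts, level did not follow position along the transcript. The highest and the second highest members were the first and the last hairpins, and the lowest lay between them. Mir19a, 53 bp downstream of Mir18 and 75 bp upstream of Mir20a, was the lowest. With a prior count of 0.5, Mir17 exceeded Mir19a 5426-fold in replicate 2 (1877 to 56007, exact 95% interval of the ratio) and 4068-fold in replicate 1 (1787 to 16798). Mir20a exceeded Mir19b-1, its downstream neighbour, 623-fold in replicate 2 (324 to 1661) and 490-fold in replicate 1 (286 to 1026).

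Copies of a sequence elsewhere in the genome matter for these counts, because the tables put reads with more than 1 position in a category of their own. The hairpins below are shown because they differ in this respect, with the mature 3p form in capitals; the Mir19a, Mir19b-1 and Mir92-1 hairpins are on chromosome 14 and the Mir19b-2 and Mir92-2 hairpins on chromosome X.
Mir19a: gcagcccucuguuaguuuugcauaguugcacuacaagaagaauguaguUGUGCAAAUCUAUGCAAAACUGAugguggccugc
Mir19b-1: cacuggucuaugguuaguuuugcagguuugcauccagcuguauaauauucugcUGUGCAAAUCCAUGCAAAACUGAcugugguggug
Mir19b-2: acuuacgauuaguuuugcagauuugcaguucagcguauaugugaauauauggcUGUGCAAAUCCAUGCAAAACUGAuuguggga
Mir92-1: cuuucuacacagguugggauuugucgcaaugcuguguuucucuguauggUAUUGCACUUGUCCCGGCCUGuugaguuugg
Mir92-2: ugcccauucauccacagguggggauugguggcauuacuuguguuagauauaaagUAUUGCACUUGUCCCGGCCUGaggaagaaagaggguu

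Mir19b-1 and Mir19b-2 share a run of 25 nt that holds the whole of miR-19b-3p, and in the GENCODE transcripts that form matched these 2 miRNA genes. Mir92-1 and Mir92-2 share a run of 22 nt that holds the whole of miR-92a-3p, which likewise matched both. The base after miR-92a-3p is U in the Mir92-1 hairpin and A in the Mir92-2 hairpin. In the same search miR-19a-3p matched no other miRNA gene, and none of the 61 windows of 22 nt in its hairpin occurs in another annotated miRNA hairpin. Its longest run shared with any of them was 13 nt. These are exact matches only, and miR-19a-3p is 1 base from miR-19b-3p. The part of multimapping reads in the low counts of Mir19a and Mir19b-1, and in the level of Mir92-1, was not tested.

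Within the cluster, the make-up of the counts differed between the hearts. Mir17 took 46.6% of the cluster's counts in replicate 2 (exact Clopper-Pearson 95% interval 46.1 to 47.2) and 55.8% in replicate 1 (55.3 to 56.3). Mir92-1 took 33.5% in replicate 2 (33.0 to 34.0) and 24.2% in replicate 1 (23.7 to 24.7), a gap about as large in the other direction. The shares are parts of the same total, so a lower share of Mir17 goes with higher shares elsewhere. Mir20a took 16.1% in replicate 2 (15.6 to 16.5) and 17.2% in replicate 1 (16.8 to 17.6). Mir18 took 3.76% in replicate 2 (3.54 to 3.98) and 2.77% in replicate 1 (2.60 to 2.96). The intervals of these 4 genes did not overlap between hearts, while those of Mir19a and Mir19b-1, at 0.0335% or less, did. Differences beyond counting error were common at this depth: 55.2% of the 375 miRNA genes tested passed the test between the hearts that is described with the log2 ratios. Such intervals hold for counting error alone, as the labels describe no molecular identifiers. Reads of miR-92a-3p placed at both Mir92-1 and Mir92-2 are not in the shares. Their part in the make-up and in its difference between the hearts was not tested.

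**Figure D2:**
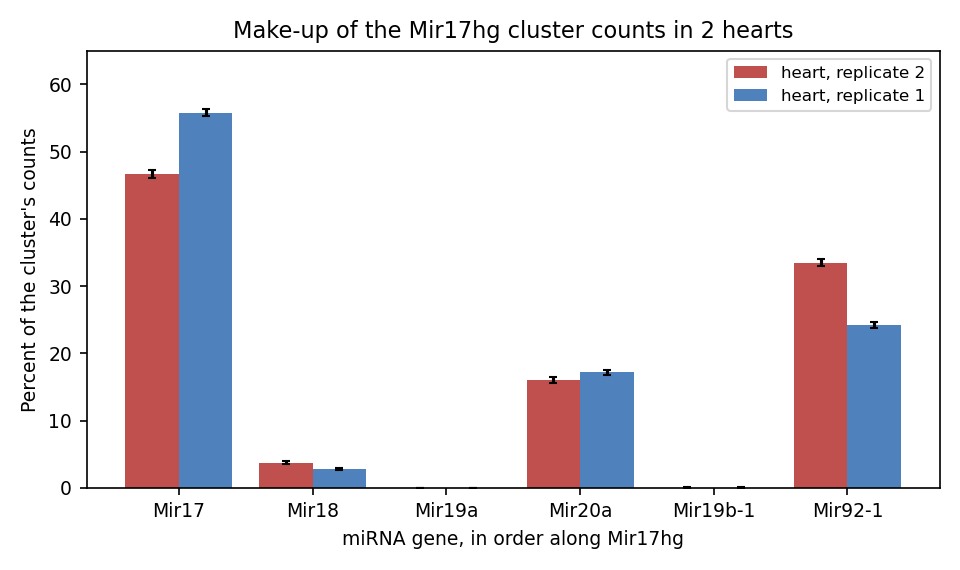
Percent of the cluster's counts (y axis) taken by each of the 6 genes in replicate 2 (red) and replicate 1 (blue), with exact 95% intervals. Reads placed at more than 1 position are left out. Mir17 took 46.6% in replicate 2 and 55.8% in replicate 1, and Mir92-1 took 33.5% in replicate 2 and 24.2% in replicate 1.

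Ratios of one member to another do not depend on how the libraries are scaled. They come from the same counts as the shares, so the same split in them is no separate support. The log2 ratio of Mir17 over Mir18 was 3.63 in replicate 2 (3.54 to 3.72) and 4.33 in replicate 1 (4.23 to 4.43). The log2 ratio of Mir20a over Mir92-1 was -1.06 in replicate 2 (-1.11 to -1.01) and -0.50 in replicate 1 (-0.55 to -0.45). Mir17 exceeded Mir20a, its partner by seed, 2.90-fold in replicate 2 (2.81 to 3.00) and 3.25-fold in replicate 1 (3.15 to 3.35), a smaller difference between the hearts. Mir18 over Mir92-1 had a log2 ratio of -3.16 in replicate 2 (-3.25 to -3.07) and -3.13 in replicate 1 (-3.23 to -3.03). Of the 6 pairs among the 4 well-counted members, 5 had intervals that did not overlap between the hearts, and Mir18 with Mir92-1 was the exception. No share over pairs of other genes was computed, and the count is not read as particular to the cluster.

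Set against all miRNA genes, the difference between the hearts went in both directions within the cluster. The libraries were scaled by trimmed mean of M values (TMM) factors and genes whose counts summed to at least 20 were tested by an exact two-sided binomial test with Benjamini-Hochberg adjustment over 375 genes. All 4 members tested passed a threshold of 0.05, 2 of them higher in replicate 2 and 2 lower. Over all 375 genes 55.2% passed, 26.1% higher in replicate 2 and 29.1% higher in replicate 1, so passing was common among the genes at large. The test picks up smaller differences where counts are higher, and the 4 members had 910 counts or more in each heart. The share that passed among genes of like depth was not computed. Mir19a and Mir19b-1 fell under the minimum and were not tested.

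Mir17 was lower in replicate 2, with a log2 ratio of -0.47 (exact 95% interval -0.50 to -0.44, adjusted p = 7.5e-184). Mir20a, with the same seed, was lower too, at -0.31 (-0.37 to -0.25, adjusted p = 9.7e-27 by the same exact test). Mir92-1 was higher in replicate 2 by 0.26 (0.21 to 0.30, adjusted p = 3.7e-31, exact test) and Mir18 by 0.23 (0.10 to 0.35, adjusted p = 0.0012, exact test). None of the 4 was 1.5-fold apart. The median absolute log2 ratio was 0.28 over these 4 members, 0.37 over all 375 genes and 0.31 over the 156 genes whose counts summed to at least 1000. The signed medians were -0.04 for the members and -0.02 for all genes. In size, the members thus differed between the hearts about as much as miRNA genes at large. The summed cluster had a log2 ratio of -0.21 (-0.24 to -0.19). Mir19a (-0.89, interval -4.51 to 1.76) and Mir19b-1 (-0.66, interval -2.30 to 0.81) had intervals on both sides of 0. Some marker miRNAs differed between the hearts as well. Mir126a had 137860 CPM in replicate 2 and 86321.5 CPM in replicate 1. The smooth muscle genes Mir143 and Mir145a summed to 35952 CPM in replicate 2 and 53735 CPM in replicate 1. The erythroid genes Mir144 and Mir451a summed to 749.5 CPM in replicate 2 and 268 CPM in replicate 1. White blood cell genes were closer, at 2447 CPM in replicate 2 and 2295 CPM in replicate 1. The part of these marker levels in the members' differences was not tested.

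**Figure D3:**
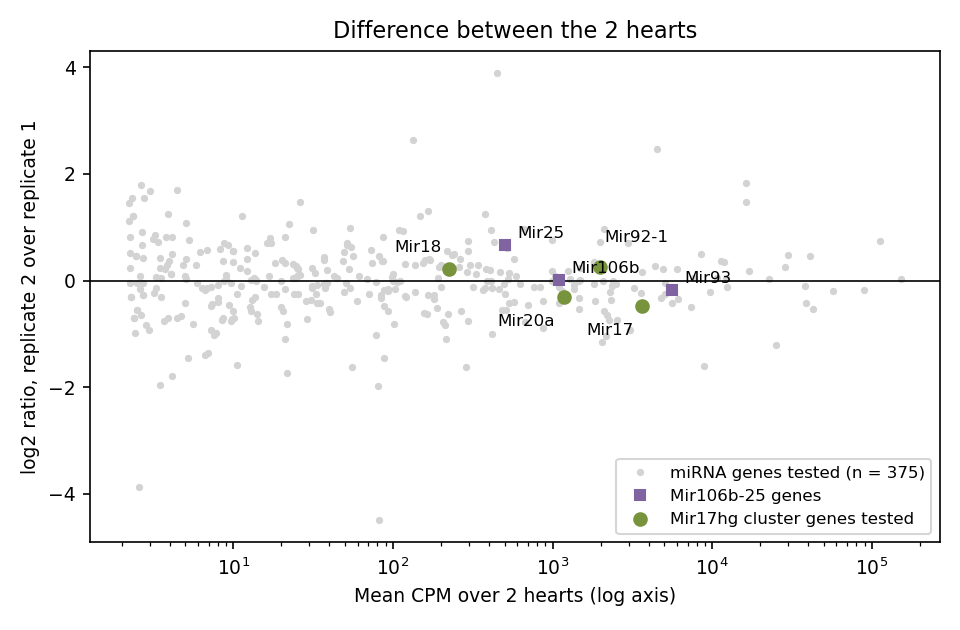
Mean CPM over the 2 hearts (x, log axis) against the log2 ratio of replicate 2 over replicate 1 (y) for the 375 miRNA genes tested (grey), with the 4 Mir17hg cluster genes tested (green) and the 3 Mir106b-25 genes (purple). Mir17 and Mir20a lie below 0, Mir18 and Mir92-1 above it, all between -0.47 and 0.26.

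Mouse has 2 paralog clusters. Mir106b, Mir93 and Mir25 lie in the DNA replication gene Mcm7 on chromosome 5, and Mir106a, Mir18b, Mir20b, Mir19b-2, Mir92-2 and Mir363 on the X chromosome. The Mir17hg cluster summed to 6345 CPM in replicate 2 and 7700 CPM in replicate 1. Mir106b-25 summed to nearly the same, 6820 CPM in replicate 2 and 7564 CPM in replicate 1, so that the Mir17hg cluster was 0.930-fold of it in replicate 2 (0.916 to 0.945) and 1.02-fold in replicate 1 (1.00 to 1.03). Their order turned between the hearts, with a difference smaller than the spread between them. Reads placed both at Mir19b-1 or Mir92-1 and at an X-linked copy are left out of the Mir17hg sum. The Mir106b, Mir93 and Mir25 hairpins have no 22 nt window in another annotated miRNA hairpin. The 2 sums are thus not alike in this respect, and the part of multimapping reads in their closeness was not tested. Mir106a-363 summed to 65.5 CPM in replicate 2 and 73.5 CPM in replicate 1, and the Mir17hg cluster exceeded it 96.8-fold in replicate 2 (86.5 to 109) and 105-fold in replicate 1 (93.8 to 118).

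The gap to the X-linked cluster held for each well-counted member. Mir17 exceeded Mir106a, whose mature 5p form differs from miR-17-5p at 1 of 23 bases (U10A), 286-fold in replicate 2 (217 to 393) and 279-fold in replicate 1 (221 to 365). Mir20a exceeded Mir20b 144-fold in replicate 2 (103 to 214) and 143-fold in replicate 1 (106 to 203). Mir92-1 exceeded Mir92-2 47.6-fold in replicate 2 (41.6 to 55.1) and 41.5-fold in replicate 1 (36.0 to 48.3), though the same miR-92a-3p lies in both. Reads placed at both genes are in neither count, so this ratio covers uniquely placed reads only. Mir18b had 2 counts in replicate 2 and 1 in replicate 1, which put the ratio of Mir18 to it between 151-fold and 4518-fold in replicate 2. Mir19b-2 had 1 count in replicate 2 and 0 in replicate 1, so the miR-19 genes were at the floor in both clusters.

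Seen by seed, 19 of the 2202 genes carry a mature form with one of the 4 seeds, among them 4 outside the 3 clusters. The forms of Mir106b-25 are shown with their seed in capitals, for comparison with miR-17-5p and miR-92a-3p above.
miR-93-5p, from Mir93: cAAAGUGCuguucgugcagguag
miR-106b-5p, from Mir106b: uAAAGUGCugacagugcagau
miR-25-3p, from Mir25: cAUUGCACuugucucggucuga

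The miR-17 seed was held by 7 genes summing to 10207 CPM in replicate 2 and 12808 CPM in replicate 1. The leading gene of this group was Mir93, not Mir17: Mir93 had 5128 CPM in replicate 2 and 6043 CPM in replicate 1, and Mir17 was 0.577-fold of it (0.565 to 0.590) in replicate 2 and 0.711-fold (0.698 to 0.725) in replicate 1. Mir17 and Mir20a together made up 39.0% of the group in replicate 2 and 43.9% in replicate 1. Of 6 genes tested in the group, 3 were lower in replicate 2 (Mir17, Mir20a and Mir93, the last at -0.17) and none was higher; Mir106b had a log2 ratio of 0.02 (-0.04 to 0.07). Over all 375 genes 29.1% were higher in replicate 1, so 3 of 6 is not read as particular to the seed.

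The miR-92 seed was held by 7 genes summing to 2842 CPM in replicate 2 and 2382 CPM in replicate 1, of which Mir92-1 made up 74.8% and 78.3%. Here the member led its group, 3.49-fold above Mir25 in replicate 2 (3.35 to 3.64) and 4.67-fold in replicate 1 (4.43 to 4.92). Of 6 genes tested, 2 were higher in replicate 2, Mir92-1 and Mir25, the last by 0.67 (0.59 to 0.76, adjusted p = 7.5e-53, exact binomial test). That share is near the 26.1% of all 375 genes that were higher in replicate 2. The other 4 genes tested, Mir32, Mir92-2, Mir92b and Mir363, did not pass, with log2 ratios from -0.31 to 0.06 and mean levels of 53.7 CPM or less. Mir6383, with the miR-17 seed, and Mir367, with the miR-92 seed and known from pluripotent cells, were at 0 in both hearts.

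The miR-18 and miR-19 seeds had little outside the cluster. Mir18 made up 99.8% of the miR-18 seed group in replicate 2 and 99.9% in replicate 1. All 3 genes with the miR-19 seed together reached 2.18 CPM in replicate 2 and 3.52 CPM in replicate 1. By these counts, which leave out multimapping reads, the miR-19 seed was thus below the miR-17 seed by more than 3 orders of magnitude in both hearts.

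**Figure D4:**
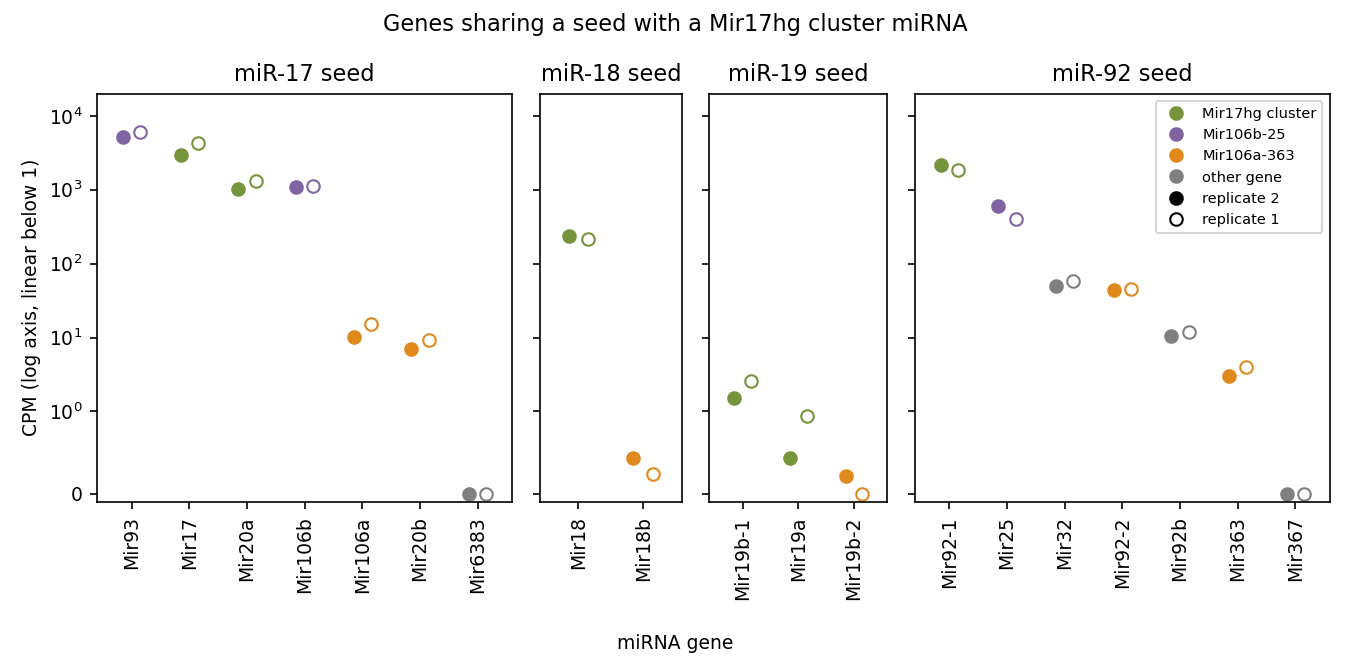
CPM (log axis, linear below 1) of the 19 genes with a seed of a Mir17hg cluster miRNA, in replicate 2 (filled) and replicate 1 (open), grouped by seed and coloured by cluster. Mir93 leads the miR-17 seed group, Mir92-1 the miR-92 seed group, and no gene with the miR-19 seed exceeds 2.58 CPM.

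For each member, the gene with 10 or more counts in both hearts and the smallest Euclidean distance in log2(CPM + 1) over the 2 libraries was taken as nearest in level. It was Mir127 for Mir17 (distance 0.17), Mir484 for Mir92-1 (0.20), Mir208b, an intronic miRNA of the myosin gene Myh7, for Mir20a (0.09) and Mir16-2 for Mir18 (0.19). Mir8111 was nearest to both Mir19b-1 (0.35) and Mir19a (1.39). These 2 members did not reach 10 counts in both hearts themselves, so genes nearer to them in level may have been left out. Over 2 libraries this likeness is one of level.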

How the data were processed

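The authors deposited 1 table per library of raw read counts per miRNA gene, on mm10 with GENCODE M21 per the notes deposited beside them. The aligner, counter and settings behind them were not given in the sources used here. The tables have no header; column 3, read from its values as the gene strand, was used. The 4 category rows (unmapped, multimapping, outside features, ambiguous; together 55.1% of reads in replicate 2 and 60.5% in replicate 1) stayed out of library sizes. All 2202 gene IDs matched M21.

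CPM were computed over named genes. TMM factors came from edgeR 4.0.16 (R 4.3.3), size factors for an alternative from DESeq2 1.42.0; Python 3.11.15 and scipy 1.17.1 did the rest. Log2 ratios are replicate 2 over replicate 1 with a prior count of 0.5, and intervals are exact Clopper-Pearson at 95%. The exact binomial test was tested on simulated counts with Poisson error and set fold changes, and no other spread between libraries. That check therefore says nothing of the spread between hearts. With 1 group of 2 hearts no condition could be compared.

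Genes named were the 6 members, their paralogs, genes sharing a seed, and the gene nearest in level to each member. The members and lists were chosen with earlier results of these data known. Hairpins from RefSeq and M21 were identical for all 15 genes of the 3 clusters. No genome was used here, so mature forms were matched to GENCODE transcripts, not the genome. Reads of an F1 hybrid were counted against the C57BL/6J-based mm10; allele effects were not analysed here. Alternatives were the unstranded column, other denominators, scalings, minimums and prior counts, and leaving out each replicate.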

Additional observations from a re-analysis of the deposited data

Results flagged for a closer look

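Reads placed at more than 1 position lie outside the gene counts and number far more than 3, the limit for an empty category. They were 38.0% of all reads in replicate 2 and 38.9% in replicate 1. The tables do not assign them to genes, so how many carry miR-19b-3p or miR-92a-3p cannot be told from these counts.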

How the results depend on the processing

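Of 99 alternative values that keep both hearts, 78 were labelled as kept and 21 as moved, and no log2 ratio turned direction. A mean was labelled as kept within 1 SD of the 2 hearts, and a count within 1.5-fold. A tested log2 ratio between hearts was kept if its sign and call held. Thus Mir17 at 4282 CPM without Mir378a and 5 members detected at a minimum of 5 counts were labelled as kept. So were 186 genes called without regard to strand, against 207. Shares and ratios of members could not move without regard to strand. Leaving out a replicate (30 values) cannot move a mean of 2 beyond 1 SD, so it says nothing of stability, and it leaves no ratio between hearts. Without regard to strand the members' counts were identical and the named-gene total was 3108772 in replicate 2 and 3107037 in replicate 1, which raised levels to 9956 CPM for the cluster, 5127 for Mir17, 322 for Mir18, 1658 for Mir20a, 2.90 for Mir19b-1 and 2845 for Mir92-1. Over all reads they were 2946.5 for the cluster, 1514 for Mir17, 95.8 for Mir18, 0.284 for Mir19a, 490.1 for Mir20a, 0.853 for Mir19b-1 and 846 for Mir92-1. Without Mir378a they were 8287 for the cluster, 267 for Mir18 and 2353 for Mir92-1. Without Mir19b-1 and Mir92-1 in the sum, Mir17 took 71.9%, Mir20a 23.4% and Mir18 4.66%. Requiring a 1.5-fold difference as well ended the calls of all 4 members (0 called) and left 86 of 207 genes; without it the exact binomial test called 4 members under each other minimum and scaling. Mir18 came nearest to the threshold, with adjusted p from 0.00012 to 0.026 over its alternatives. The DESeq2 size factors were 1 for both libraries, so that alternative compared the counts without scaling. The planned count of genome matches was not run. No paired analysis was possible because both hearts form 1 group. Depth limits Mir19a and Mir19b-1.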

Other observations

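The following values were taken out after the low counts of Mir19a had been seen. Hairpins on 1 strand with gaps of 10 kb or less formed 10 stretches of 3 or more genes whose leading gene reached 1000 CPM. In each, the lowest gene without a 22 nt run shared with another hairpin was noted. In the Mir17hg cluster it was Mir19a, at 0.688 CPM beside 3628 CPM for Mir17. In 2 of the other 9 stretches, both on chromosome 12, it was at 0 (Mir432 and Mir654). In the remaining 7 it stood at 53.5 CPM (Mir362) to 24985 CPM (Mirlet7d, the single such gene of its stretch).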
